A study of Rattus norvegicus with 5 samples.

Results

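Among the genes that differed between lung libraries of Sprague Dawley rats, 39 gene symbols were solute carriers, ion channels or water channels. They were chosen by name alone: symbols starting with Slc and a digit, Slco, Kcn, Scn and a digit, Cacn, Clcn, Trpc, Trpm, Trpv or Aqp, with Slc2a1 and Slc4a1 left out. They stood at 40 loci, out of 1821 loci in all that the authors listed as different between at least 1 pair of libraries. The set held 25 carriers, 13 channels including the water channel Aqp4, and Slc9a3r1, which the name rule took in although it encodes a scaffold protein that binds transporters at the membrane. No Cacn or Trpc gene was listed. Earlier results of these data were known when the set was chosen.

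Solute carriers move amino acids, sugars, lactate, hormones and inorganic ions across membranes, and ion channels let ions flow down their gradients. In the lung they keep the airspaces free of fluid, set the surface liquid of the airways, and clear serotonin, adenosine and prostaglandins from the blood that passes through its capillaries. Potassium, calcium and TRP channels also take part in the tone of the pulmonary vessels.

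RNA was sequenced from 5 libraries, 1 per group, and the labels do not state how many animals each library held. The reference was a male kept in normoxia and not screened. The other 4 libraries came from rats first graded by how long they took to gasp at low pressure, rested for a week, and then held for 1 h at a simulated altitude of 9144 m. They were a susceptible male (gasp before 5 min), a normal male (15 to 20 min), a tolerant male (after more than 45 min) and a tolerant female (after more than 1 h). Every difference below is between single libraries with no replicate. Differences of the female from a male cannot be told apart from a difference of sex. In bulk tissue, fewer cells of a type and less RNA per cell cannot be told apart.

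Folds and p-values were taken from 9 tables in which the authors set a library against another. A gene had to differ 2-fold or more, with a p under 0.05 after their FDR correction, to enter a table. A gene that a table does not list has no value there, which does not show that it was unchanged. Where tables share a library, the level of a gene in further libraries was derived by chaining the listed folds. A derived level carries no p. A listed p sets 1 library against 1 other and does not measure the spread between animals. Depth per library is unknown. Marker genes of alveolar type 2 cells (0 of 7), alveolar type 1 cells (0 of 5) and endothelium (0 of 6) were in none of the 9 tables, so the lung label could not be checked by levels. Values outside the rule for named genes were picked after they had been seen.

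Carrier and channel loci, like all listed loci, were mostly listed in comparisons with the normal male. Of the 40 loci, 35 (87.5%) were listed in at least 1 of the 4 tables that contain this library, and 32 (80.0%) were listed in such tables alone, beside 91.5% and 68.5% of all 1821 loci. The authors' deposited table of the normal male over the normoxic male held 18 of these loci, of which 12 were lower, where 51.7% of all listed loci were lower, and 6 were higher, where 48.3% of all were. The authors' deposited table of the normal over the susceptible male also held 18, with 11 lower (38.9% of all listed loci) and 7 higher (61.1% of all). In the authors' deposited table of the tolerant over the normal male, 8 of 14 were higher (36.8% of all) and 6 lower (63.2% of all). In that of the tolerant female over the normal male, 4 of 7 were higher (35.5% of all) and 3 lower (64.5% of all). The median log2 fold of the carriers and channels was -1.28, -1.23, 1.08 and 1.15 in these 4 authors' deposited tables, and that of all listed loci was -1.03, 1.22, -1.31 and -1.30. The 4 tables share the normal male library, so these splits are not separate observations.

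The 5 tables without the normal male were shorter, with 135 to 263 loci in all against 592 to 1041, and held 0 to 5 of these loci each. As a share of the loci listed, carriers and channels made up 0.0% to 2.22% there and 1.18% to 2.06% in the tables with the normal male. The susceptible male over the normoxic male had 2, with 1 higher (39.9% of all listed loci) and 1 lower (60.1% of all), in the authors' deposited table. The tolerant female over the normoxic male had 5, with 3 higher (53.8% of all) and 2 lower (46.2% of all). The tolerant male over the normoxic male had 0 of 263 listed loci, so 0 were higher (46.8% of all) and 0 lower (53.2% of all). The tolerant male over the susceptible male had 3, with 1 higher (54.8% of all) and 2 lower (45.2% of all), and the tolerant female over the susceptible male had 1 lower (34.1% of all) and 0 higher (65.9% of all).

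Folds of at least 4 were found for 9 of the 18 carrier and channel loci in the normal over the normoxic male, where 36.1% of all listed loci reached that size, in the authors' deposited table. For the other 3 comparisons with the normal male, the authors' deposited tables held 5 of 18 for the normal over the susceptible male (39.4% of all), 2 of 14 for the tolerant over the normal male (44.9% of all) and 2 of 7 for the tolerant female over the normal male (36.1% of all). Over the normoxic male there were 0 of 2 for the susceptible male (51.6% of all), 0 of 0 for the tolerant male (33.1% of all) and 1 of 5 for the tolerant female (31.7% of all). Over the susceptible male there were 0 of 3 for the tolerant male (24.4% of all) and 0 of 1 for the tolerant female (64.7% of all).

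**Figure D1:**
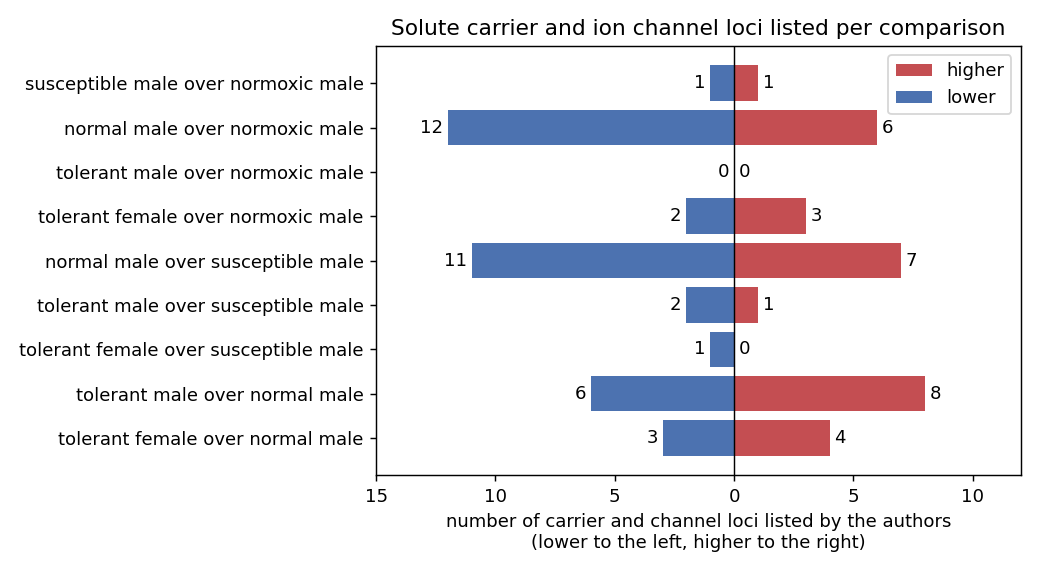
Number of solute carrier and ion channel loci that the authors listed as lower (bars to the left) or higher (bars to the right) in each of the 9 comparisons, with 1 library on each side. The 4 comparisons with the normal male hold 7 to 18 loci each, and the other 5, which list fewer genes in all, hold 0 to 5.

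All tables together show which genes made up these counts. Of the 40 loci, 24 (60%) were listed in 1 table, beside 749 of all 1821 loci (41.1%), and 6 (15.0%) in at least 3, beside 728 (40.0%). Against the normoxic library, 22 loci (55%) were listed in at least 1 table, beside 1141 of all (62.7%), and 2 (5.0%) in at least 2, beside 304 (16.7%). Only the 2 listed in more than 1 of these tables, Scn3b and Slc10a6, could differ in direction between them, and neither did. The remaining 18 of the 40 loci were listed between exposed libraries only.

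**Figure D2:**
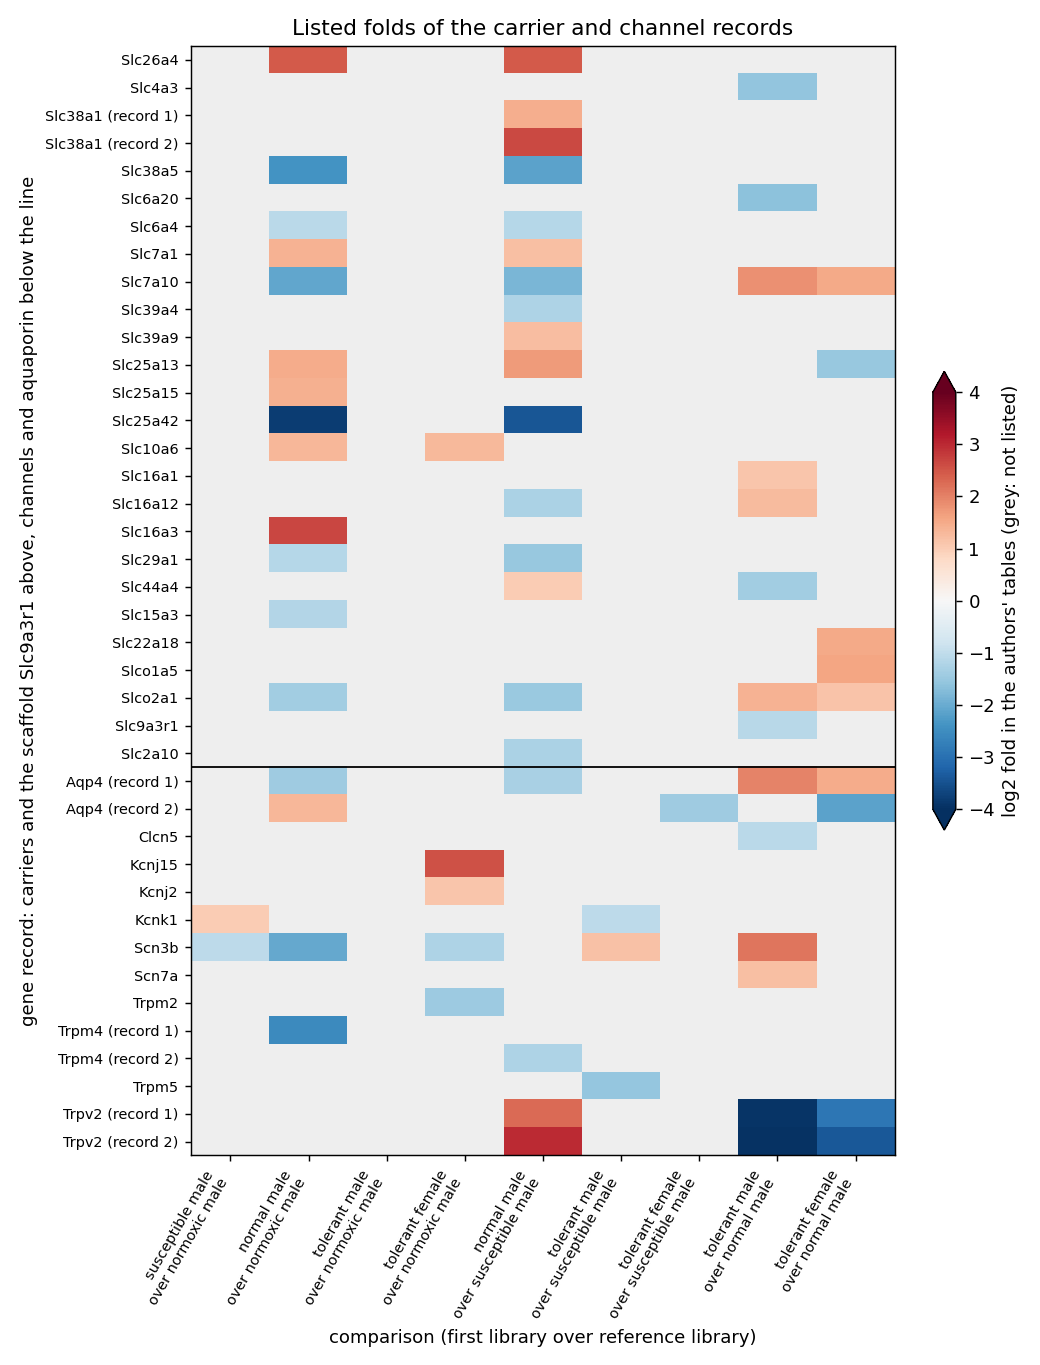
Listed log2 folds (colour) of carrier and channel records (rows) in the 9 comparisons (columns), with grey where a gene was not listed. A gene with more than 1 record in the tables has a row for each, and the 2 Aqp4 records carry opposite colours in the normal over the normoxic male.

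The water channel Aqp4 had 2 gene records at 1 locus, and they moved in opposite directions. Aquaporin 4 passes water through the basolateral membrane of airway epithelium and is made from more than 1 start. The longer record (chromosome 18, 6626305 to 6642766) and the shorter one (6626313 to 6641850) differed by 916 bases at the upstream end and by 8 bases at the other end, in the coordinates of the tables, whose build is not named. In RefSeq on GRCr8, the 2 transcript starts of Aqp4 on the minus strand also lie 916 bases apart, so the records match these starts by their distance. The bases before each start are shown because the records that begin there differed in direction. No letters are in capitals, since neither stretch holds the motif described further down.

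Aqp4, 250 bases before the upstream start, GRCr8 chr18:6798843-6799092, minus strand: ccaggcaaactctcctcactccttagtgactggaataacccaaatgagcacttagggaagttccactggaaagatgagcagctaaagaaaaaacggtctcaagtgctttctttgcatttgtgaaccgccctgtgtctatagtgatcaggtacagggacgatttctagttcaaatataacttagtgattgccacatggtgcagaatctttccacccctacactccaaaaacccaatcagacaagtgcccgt
Aqp4, 250 bases before the downstream start, GRCr8 chr18:6797927-6798176, minus strand: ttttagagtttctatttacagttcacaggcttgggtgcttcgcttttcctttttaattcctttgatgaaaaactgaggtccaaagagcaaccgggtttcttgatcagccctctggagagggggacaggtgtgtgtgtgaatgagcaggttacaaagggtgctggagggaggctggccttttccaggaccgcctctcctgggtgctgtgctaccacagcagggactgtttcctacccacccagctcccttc

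With the normoxic library set to 1, the longer Aqp4 record stood at 0.917 in the susceptible male, 0.376 in the normal male, 1.49 in the tolerant male and 1.05 in the tolerant female. The shorter record stood at 1.55 in the susceptible male, 2.50 in the normal male and 0.572 in the tolerant female, with no value for the tolerant male. The normal male thus held the lowest level of the longer record and the highest of the shorter one among the libraries with a value. The authors' deposited table of the normal over the normoxic male gave the longer record as 2.66-fold lower (FDR-corrected p = 0.00177) and the shorter as 2.50-fold higher (0.000218). In the tolerant male over the normal male, the longer record was 3.97-fold higher (3.46e-08) in the authors' deposited table. In the tolerant female over the normal male, the authors' deposited table gave the longer record as 2.78-fold higher (0.00106) and the shorter as 4.38-fold lower (4.51e-08). The shorter record was also 2.71-fold lower in the female than in the susceptible male (0.0187) in the authors' deposited table. The counts above take Aqp4 by its larger fold in each table. The sources used here do not give how reads were shared between overlapping records, and the sum of both records cannot be formed from folds.

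**Figure D3:**
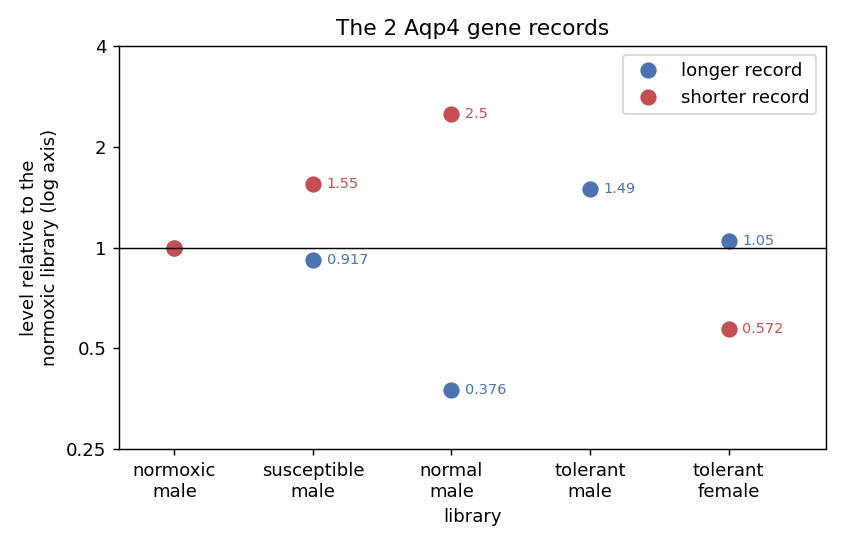
Level of the longer and the shorter Aqp4 record in each library relative to the normoxic library (log axis), 1 point per record and library, from listed and derived folds. In the normal male the longer record stands at 0.376 and the shorter at 2.50, and in the tolerant female at 1.05 and 0.572.

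Slco2a1, Slc6a4 and Slc29a1, which take prostaglandins, serotonin and adenosine into cells, were lower in the normal male than in the normoxic and susceptible males. Slco2a1, the prostaglandin transporter (chromosome 8, 108012153 to 108100171), stood at 1.05 in the susceptible male, 0.378 in the normal male, 0.989 in the tolerant male and 0.837 in the tolerant female, relative to the normoxic library. The normal male was the only 1 of the 5 libraries outside 2-fold of the normoxic level. The levels of the other exposed libraries were derived. Their place within 2-fold follows largely from the listing rule, since their own comparisons with normoxia did not list Slco2a1. The authors' deposited tables listed it as 2.64-fold lower than in the normoxic and 2.78-fold lower than in the susceptible male, and as 2.61-fold higher in the tolerant male and 2.21-fold higher in the tolerant female than in the normal male. All 4 FDR-corrected p-values were stored as 0, below the precision of the tables. Slc6a4, the serotonin transporter, was at 1.04 in the susceptible and 0.472 in the normal male, and Slc29a1, which carries adenosine, at 1.31 and 0.456. The authors' deposited tables gave FDR-corrected p-values of 0.00288 and 2.01e-09 for their lower levels in the normal male than in the normoxic male (2.12- and 2.19-fold). The other organic ion and peptide carriers each stood in 1 table. In the authors' deposited tables, Slc15a3, a peptide and histidine carrier of endosomes, was 2.23-fold lower in the normal than in the normoxic male, and Slc22a18 and Slco1a5, carriers of organic cations and organic anions, were 2.87- and 2.98-fold higher in the tolerant female than in the normal male.

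Amino acid carriers were split in the normal male. Slc7a10, an exchanger of small neutral amino acids such as serine and alanine (chromosome 1, 87695525 to 87711595), stood at 0.831 in the susceptible male, 0.236 in the normal male, 0.839 in the tolerant male and 0.676 in the tolerant female, with the normoxic library at 1. The normal male again was the only library outside 2-fold. The levels of the other exposed libraries were again derived and largely placed by the listing rule, since their own comparisons with normoxia did not list Slc7a10. Its listed folds were 4.23-fold lower than in the normoxic male (FDR-corrected p = 5.10e-07) and 3.52-fold lower than in the susceptible male (6.04e-05) in the authors' deposited tables, and 3.55-fold higher in the tolerant male (6.22e-05) and 2.86-fold higher in the tolerant female (0.00536) than in the normal male. Slc38a5, a glutamine carrier, was lower too, at 0.193 in the normal and 0.858 in the susceptible male. Slc7a1, the main arginine carrier of many cells, went the other way, at 2.60 in the normal and 1.14 in the susceptible male. Slc38a1, another glutamine carrier, had 2 overlapping records, which were 2.73- and 6.24-fold higher in the normal than in the susceptible male in the authors' deposited table. Slc6a20, a proline carrier, was 3.14-fold lower in the tolerant than in the normal male in the authors' deposited table.

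The promoters of Slco2a1 and Slc7a10 are shown as those of the carriers listed in 4 tables, and that of Slc10a6 as the carrier listed in 2 tables against normoxia. Capitals mark ACGTG or GCGTG on either strand, the core of the element that hypoxia-inducible factors bind. The Slc10a6 stretch holds it on both strands at the same place, in a palindrome that E-box factors can also bind.

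Slco2a1, 250 bases before the start, GRCr8 chr8:112467489-112467738, plus strand: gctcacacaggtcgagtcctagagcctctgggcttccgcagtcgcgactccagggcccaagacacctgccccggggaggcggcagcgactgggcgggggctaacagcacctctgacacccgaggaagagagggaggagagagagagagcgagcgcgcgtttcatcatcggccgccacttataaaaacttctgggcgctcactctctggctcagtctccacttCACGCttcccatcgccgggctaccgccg
Slc7a10, 250 bases before the start, GRCr8 chr1:96965872-96966121, plus strand: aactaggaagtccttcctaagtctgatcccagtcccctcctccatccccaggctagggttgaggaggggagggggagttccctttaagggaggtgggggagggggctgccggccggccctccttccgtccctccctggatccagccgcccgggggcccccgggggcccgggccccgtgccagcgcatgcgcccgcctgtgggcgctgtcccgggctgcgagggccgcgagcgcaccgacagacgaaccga
Slc10a6, 250 bases before the start, GRCr8 chr14:6385325-6385574, plus strand: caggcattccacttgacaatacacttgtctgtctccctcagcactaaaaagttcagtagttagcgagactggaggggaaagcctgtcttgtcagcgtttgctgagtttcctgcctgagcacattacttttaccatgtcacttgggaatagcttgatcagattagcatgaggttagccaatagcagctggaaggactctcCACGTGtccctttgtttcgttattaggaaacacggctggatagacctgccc

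RefSeq held a promoter for 28 of the 39 symbols, with 30 stretches in all. The core stood in 14 of the 30 (46.7%), beside 12284 of all 33469 promoters of the same length (36.7%). A match is a description of letters and says nothing of binding.

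Among carriers of lactate, creatine and steroid sulfates, the largest fold was that of Slc16a3. Slc16a3, the lactate exporter of glycolytic cells, was 6.37-fold higher in the normal than in the normoxic male (FDR-corrected p = 6.46e-05) in the authors' deposited table and was listed in no other. Slc16a1, a lactate carrier that works in both directions, was 2.18-fold higher in the tolerant than in the normal male in the authors' deposited table. Slc16a12, known in humans as a creatine carrier, was 2.42-fold lower in the normal than in the susceptible male and 2.41-fold higher in the tolerant than in the normal male in the authors' deposited tables. Slc10a6, a carrier of sulfated steroids (chromosome 14, 7270540 to 7293753), was 2.50-fold higher in the normal male (0.00448) and 2.46-fold higher in the female (0.0160) than in normoxia in the authors' deposited tables. It was the only carrier listed in more than 1 table against normoxia.

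Mitochondrial carriers moved in both directions in the normal male. Slc25a42, which brings coenzyme A into mitochondria (chromosome 16, 19697100 to 19720036), stood at 0.766 in the susceptible and 0.0714 in the normal male, relative to the normoxic library. The authors' deposited tables listed it as 14.0-fold lower in the normal than in the normoxic male (FDR-corrected p = 8.97e-05) and 10.7-fold lower than in the susceptible male (0.00197). Slc25a13, the aspartate-glutamate carrier citrin (chromosome 4, 30822456 to 31006241), stood at 0.860 in the susceptible male, 2.80 in the normal male and 0.977 in the tolerant female. Its p-values lay near the authors' threshold, at 0.0383 against the normoxic male, 0.0148 against the susceptible male and 0.0462 for the tolerant female over the normal male, in the authors' deposited tables. Slc25a15, the ornithine carrier of the urea cycle, was 2.66-fold higher in the normal than in the normoxic male (0.0297) in the authors' deposited table.

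Acid-base, metal, sugar and choline-family carriers were listed between exposed libraries, apart from Slc26a4. Slc26a4, the anion exchanger pendrin of airway and inner ear epithelium, stood at 0.997 in the susceptible and 5.47 in the normal male, with FDR-corrected p-values of 0.0439 and 0.0428 against the normoxic and the susceptible male in the authors' deposited tables. Slc44a4, an epithelial carrier of the choline transporter-like family, was 2.01-fold higher in the normal than in the susceptible male and 2.65-fold lower in the tolerant than in the normal male in the authors' deposited tables. In the same direction, 3 of 5 club and ciliated cell markers were higher in the normal than in the normoxic male, by 2.14- to 3.34-fold. In the authors' deposited tables, 2 were higher in the normal than in the susceptible male, and 3 were lower in the tolerant than in the normal male. Those listed were the secretoglobins Scgb1a1, Scgb3a1 and Scgb3a2, and the markers Foxj1 and Cyp2f4 were in none of the 9 tables. Scgb3a1 was also 3.29-fold lower in the susceptible than in the normoxic male, where Slc26a4 stood at 0.997. In the female, Scgb3a1 was 4.37-fold lower than in the normal and 2.52-fold higher than in the susceptible male. Cnn1, the only 1 of 4 smooth muscle markers listed, was likewise higher in the normal than in the normoxic (2.05-fold) and susceptible male (2.07-fold). It was 2.12-fold lower in the tolerant than in the normal male. The part of club and ciliated cells in the Slc26a4 and Slc44a4 results was not tested. The chloride-bicarbonate exchanger Slc4a3 was 2.99-fold and Slc9a3r1 2.15-fold lower in the tolerant than in the normal male in the authors' deposited table. Of the zinc carriers, Slc39a4 was 2.36-fold lower and Slc39a9 2.33-fold higher, and the facilitative sugar carrier Slc2a10 was 2.41-fold lower, in the normal than in the susceptible male in the authors' deposited table.

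Among sodium channel genes, Scn3b was lower in 3 of the 4 exposed libraries than in the normoxic male. Scn3b, an auxiliary beta subunit (chromosome 8, 43231375 to 43254100), was the gene of the set listed in most tables against normoxia, with 3. Its level was 0.479 in the susceptible male, 0.242 in the normal male, 1.08 in the tolerant male and 0.429 in the tolerant female, relative to the normoxic library. The tolerant male and the normoxic male were thus alike in level, and the other 3 libraries lay between 0.242 and 0.479 of it. The authors' deposited tables gave 2.09-fold (FDR-corrected p = 3.00e-08), 4.13-fold (stored as 0) and 2.33-fold (2.24e-10) lower levels than in the normoxic male, and 2.25-fold (2.44e-10) and 4.45-fold (stored as 0) higher levels in the tolerant male than in the susceptible and normal males. Scn7a, a sodium-sensing channel, was 2.31-fold higher in the tolerant than in the normal male (1.40e-09) in the authors' deposited table.

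Heart muscle transcripts, which rat lung holds in the walls of its veins, moved with part of this pattern. Of 12 heart muscle markers, the authors' deposited tables against normoxia listed 10 as lower in the susceptible male (3.52- to 172-fold), 9 in the normal male (2.84- to 8.34-fold), 10 in the tolerant male (the 9 with a finite fold by 5.76- to 874-fold) and 10 in the tolerant female (2.98- to 12.6-fold). The marker without a finite fold, Myl7, had a library at 0 and was listed there at a locus on chromosome 2. Its listings in other comparisons were on chromosome 14. The heart myosin gene Myh6 stood at 0.129, 0.120, 0.00166 and 0.222 in the susceptible, normal and tolerant male and the tolerant female. In the tolerant male, where these markers were lowest, Scn3b stood at 1.08. The part of heart muscle in the lower Scn3b levels of the other 3 libraries was not tested.

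The 3 potassium channel genes were each higher in 1 exposed library than in normoxia. Kcnj15 and Kcnj2, which pass potassium inward and hold the resting potential, were higher in the tolerant female than in normoxia, by 5.89-fold (FDR-corrected p = 0.0105) and 2.14-fold (0.0299), in the authors' deposited table. Neither was listed elsewhere. Kcnk1, a background potassium channel, stood at 2.02 in the susceptible and 0.976 in the tolerant male. It was higher in the susceptible than in the normoxic male (0.00627) and 2.07-fold lower in the tolerant than in the susceptible male (0.00555) in the authors' deposited tables.

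TRP channels, which admit cations in response to calcium, oxidants or stretch, were listed at 5 loci. Trpv2 (chromosome 10, 48757433 to 48786529) had 2 overlapping records, both highest in the normal male. With the normal male set to 1, the longer record stood at 0.207 in the susceptible male, 0.0667 in the tolerant male and 0.133 in the tolerant female, and the shorter record at 0.127, 0.0639 and 0.0943. No fold against normoxia was listed for it. The FDR-corrected p-values of these 6 folds ran from 0.00462 for the longer record in the tolerant male to 0.0455 for the longer record in the susceptible male in the authors' deposited tables. Trpm4, a calcium-activated channel for monovalent cations, was 5.84-fold lower in the normal than in the normoxic male at a locus on chromosome 7, and 2.33-fold lower in the normal than in the susceptible male at a locus on chromosome 1, in the authors' deposited tables. RefSeq places Trpm4 on chromosome 1, so the locus on chromosome 7 does not match the RefSeq gene. Trpm2, an oxidant-activated channel, fell 2.75-fold from the normoxic male to the tolerant female, at an FDR-corrected p of 0.04999, just inside the threshold, in the authors' deposited table. There, 6 of 6 B cell markers were lower (3.14- to 7.75-fold) and 0 of 6 neutrophil markers were listed. Of 4 macrophage markers, the authors' deposited table listed Vsig4 alone, as 24.8-fold higher. Against normoxia, B cell markers were also lower in the susceptible (6 of 6, by 3.62- to 18.2-fold), normal (1 of 6) and tolerant male (2 of 6) in the authors' deposited tables. Trpm2 was not listed in those comparisons. The part of immune cells in the Trpm2 value was not tested. Trpm5, the channel of taste and tuft cells, was 2.91-fold lower in the tolerant than in the susceptible male (0.00106) in the authors' deposited table. Clcn5, a chloride-proton exchanger of endosomes, was 2.10-fold lower in the tolerant than in the normal male in the authors' deposited table, at a locus on chromosome 1 where RefSeq has the gene on X.

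Records listed for the normal over the normoxic male were set beside their levels in the other exposed libraries, where levels could be chained. Of 19 records listed for the normal over the normoxic male, 12 had a level in the susceptible male, and 11 of these lay within 2-fold of the normoxic level. The exception was Scn3b. For the tolerant male it was 4 of 4 records, and for the tolerant female 5 of 7, with Scn3b and Slc10a6 outside. Among all gene records the shares were 387 of 588 (65.8%), 288 of 493 (58.4%) and 297 of 487 (61.0%). A chained level exists only where a further table listed the gene, so these shares describe listed genes and not all genes. A level was derived only where the library's own comparison with normoxia did not list the record, and most such levels lie within 2-fold for that reason. The shares thus follow largely from the listing rule and do not show that the normal male stood apart.

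**Figure D4:**
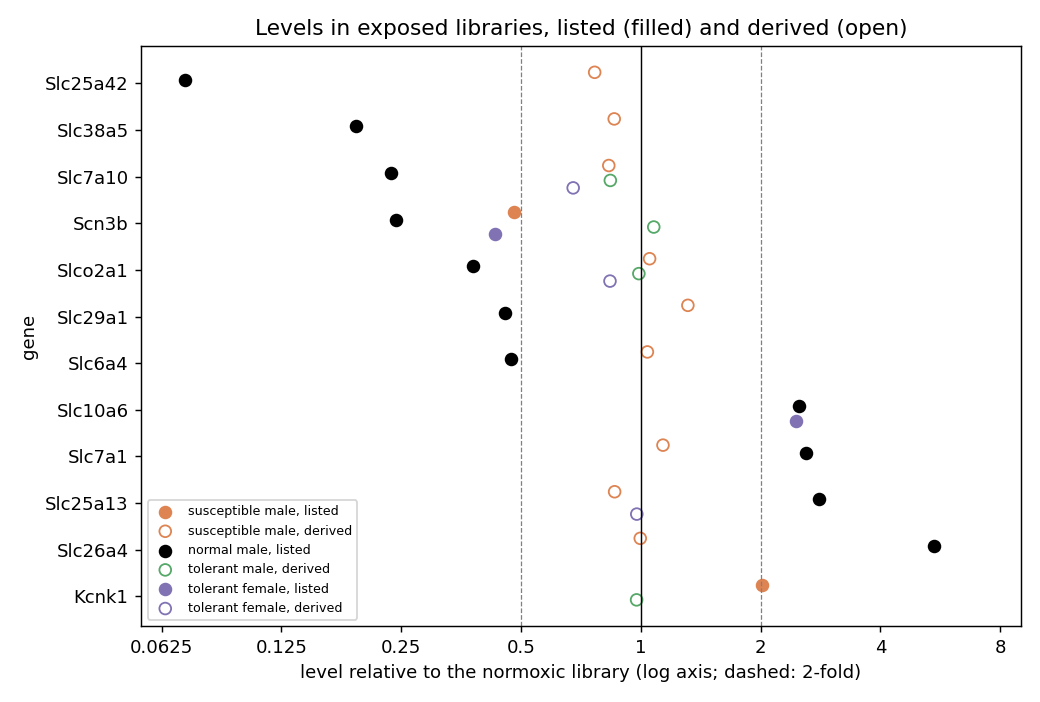
Level relative to the normoxic library (log axis) of carriers and channels with a level in at least 2 exposed libraries, Aqp4 left out, with filled points for listed and open points for derived levels and 1 point per library. Black points of the normal male lie outside the dashed 2-fold lines, and the open points of the other libraries lie inside them. An open point stands for a comparison with normoxia that did not list the gene, which largely sets its place.

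The span of the annotated locus differed between genes listed as higher and as lower in the tables with the normal male. In the normal over the normoxic male, all loci listed as higher had a median span of 4.95 kb and those listed as lower 23.8 kb. The carriers and channels had 23.3 kb for the 6 higher and 16.4 kb for the 12 lower. Against the susceptible male, the medians were 5.71 and 26.6 kb for all loci and 23.3 and 16.5 kb for the carriers and channels. In these 2 tables the order for carriers and channels was thus the reverse of that for all loci. In the tolerant over the normal male, the medians for higher and lower were 24.5 and 3.41 kb for all loci and 21.5 and 16.8 kb for the carriers and channels. In the tolerant female over the normal male they were 25.2 and 4.01 kb for all loci and 42.5 and 21.3 kb for the carriers and channels, so in both of these tables the order was the same. The 4 tables share the normal male, and no difference in span was tested.

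Other genes of ion and fluid transport outside the name rule were also listed in both directions. Of 90 such genes on a list, 11 were in at least 1 table. In the authors' deposited tables against normoxia, the normal male had 8 of them, 2 higher and 6 lower, where 51.7% of all listed loci were lower. The susceptible and the tolerant male each had 4, with 1 higher and 3 lower, where 60.1% and 53.2% of all were lower. The female had 5, with 2 higher and 3 lower, where 46.2% of all were lower. Ryr2, which is also on the heart muscle list, was among the lower genes in all 4 tables, and Atp2a2, the calcium pump of heart muscle and other cells, in those of the susceptible and tolerant male and the female. Car4, the carbonic anhydrase on the surface of lung capillaries, was lowest in the normal male. In the order susceptible, normal and tolerant male and tolerant female, Car4 stood at 0.996, 0.355, 0.845 and 0.711, relative to the normoxic library. Clic6, an intracellular chloride channel protein, was at 1.06, 3.07 and 0.379 in the 3 exposed males. Ryr2, the calcium release channel of heart muscle, stood at 0.135, 0.255, 0.0594 and 0.224, and Clca3, a secreted goblet cell protein, at 0.0984, 0.0862, 0.0259 and 0.0305. Stc1, a hormone that acts on calcium and phosphate transport, was at 4.61, 2.06, 9.02 and 7.99, the normal male lowest of the 4. The level of 2.06 for Stc1 in the normal male and of 0.379 for Clic6 in the tolerant male were derived. Neither was listed in that library's own comparison with normoxia. The Car4 levels other than 0.355 and the Clic6 level of 1.06 were derived too.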

How the data were processed

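Lung RNA was extracted with TriReagent, made into libraries with an Illumina kit and sequenced on a Genome Analyzer IIx, per the labels. The authors deposited 11 tables, of which 2 were copies and 9 were used (4 against normoxia, 5 between exposed libraries). The deposited fold, used here as a signed score, is a ratio of proportions per the file headers, with the sign giving the direction. The deposited p-value is the authors' FDR-corrected value per the file headers. Only folds of at least 2 with p below 0.05 were listed. The sources used here do not give the aligner, the counting, the authors' test or the build. With 1 library per group no test was run.

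Overlapping rows of a symbol were taken as 1 locus, represented by the row with the largest fold. Levels were derived by chaining log2 folds of records with the same coordinates. A run on simulated data checked the arithmetic alone, since its folds were exact differences of the simulated levels. Over all gene records, 146 of 146 with more than 1 path between libraries matched within 0.001 on the log2 scale. For the carriers and channels, 1 record had such a path, and of 39 derived folds for pairs of libraries whose table did not list the record, 38 were under 2-fold. Names and promoters came from RefSeq on GRCr8, where 39 of 39 symbols were found, 2 of them as older symbols, and 3 lay on another chromosome. Values were given for genes listed in at least 2 tables against normoxia or in at least 3 tables, with a fold of at least 8, or with records of opposite sign (9 genes), and for others by choice. Some genes that enter the counts are not reported here. The members and lists were chosen with earlier results of these data known. Python 3.11.15 and pandas 2.3.3 were used. The alternatives were a fold of at least 4, a p of at most 0.01, counting by symbol, leaving out zeros or mismatched chromosomes, listed folds alone, and the smaller of several folds at a locus.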

Additional observations from a re-analysis of the deposited data

How the results depend on the processing

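Counting once per symbol or leaving out loci on another chromosome than in RefSeq kept each of the 18 counts (higher and lower in 9 tables) within 1.5 times, and no carrier or channel record had a library at 0. With a fold of at least 4, the listings over the 9 tables went from 68 to 19. For the susceptible, normal and female libraries over the normoxic one, 0, 2 and 1 loci were then higher and 0, 7 and 0 lower. For the normal over the susceptible male 3 were higher and 2 lower, and for the tolerant over the normal male 1 and 1. For the tolerant over the susceptible male it was 0 and 0. For the female over the susceptible male 0 were lower, and over the normal male 0 were higher and 2 lower. With an FDR-corrected p of at most 0.01, 42 listings were left. Those higher were then 3 for the normal and 0 for the female over the normoxic library, and 1 for the normal over the susceptible male. Over the normal male, 7 were higher for the tolerant male and 2 for the female. Those lower were 10 for the normal and 1 for the female over the normoxic library. Over the susceptible male, 8 were lower for the normal male and 0 for the female. Over the normal male, 4 were lower for the tolerant male and 1 for the female. The susceptible over the normoxic male kept 1 higher and 1 lower, and the tolerant over the susceptible male 1 higher and 2 lower. With listed folds alone, the records with a level against normoxia went from 13 to 2 in the susceptible male, from 5 to 0 in the tolerant male and from 10 to 5 in the female, and stayed at 19 in the normal male. Taking the smaller fold at a locus turned Aqp4 from a log2 fold of -1.41 to 1.32 in the normal over the normoxic male and from -2.13 to 1.48 in the female over the normal male, because its records differ in sign. No paired analysis was possible because each group has 1 library. Without counts or replicates, the error of no fold can be stated. With 1 library on each side, the authors' p-values do not measure the spread between animals, however small they are. Large folds with p-values near the threshold are uncertain even between the libraries compared.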
